A study of Picea abies with 40 samples.

Results

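In seedling roots of Norway spruce (Picea abies), a conifer, 150 genes were followed whose mean level was higher in each successive root segment away from the tip. They were selected on the zone libraries alone. The 70736 genes listed in the zone table were expressed as CPM, the count of a gene per 1000000 counts of its library, and averaged per zone. A gene was kept with a zone 4 mean of at least 10 CPM, a zone 1 mean above 0, ratios of at least 1.4 at each of the 3 zone steps, and a last ratio (zone 4 over zone 3) below 2. 358 genes met these limits, and the 150 with the largest smallest ratio are the members described here. The zone values below therefore describe the selection and carry no test.

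Whole root segments and laser-captured regions were taken from seedlings kept on plates for about 2 days after germination. The whole segments, numbered from the tip as zone 1 to zone 4, had 5 libraries each, with 3 segments of 1 mm and 1 of 2 mm. Laser capture, by which selected cells are lifted from a section, gave 4 libraries for each of 3 steles, numbered stele 1, stele 2 and stele 3, and for ground tissue and the QC area. The sample descriptions call ground tissue endo and give it and the QC area the number 1, as for stele 1. No ground tissue carries the number 2 or 3, so for stele 2 and stele 3 tissue and number cannot be told apart. The labels give no genotype or treatment, do not spell out QC, and do not say which numbered stele lay in the elongation and which in the differentiation zone. They also do not say whether replicates were separate seedlings or pools, so p-values measure the spread between these libraries, which may be technical.

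A root grows from dividing cells near its tip, and cells left behind by the tip first elongate and then differentiate. Segments farther from the tip thus hold older cells of every tissue, among them the vascular cells of the stele, the central cylinder, and the ground tissue around it. In whole segments, more cells of a type and more RNA per cell cannot be told apart. Gene names are not paired with the IDs in the files and an annotation was not used here, so members appear by ID and no role is attached to them.

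Totals were 3.53 to 7.25 M counts per zone library and 4.94 to 12 M per captured library. All zone libraries were from lane 3, and the captured ones from lanes 7 and 8: the QC area entirely from lane 8, stele 2 entirely from lane 7, ground tissue with 1 library in lane 7 and 3 in lane 8, stele 1 with 2 in each, and stele 3 with 3 in lane 7 and 1 in lane 8. Both tables were made from RNA extracted in different ways, so no zone was tested against a captured region.

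The name given to these genes, an even rise along the root, described a minority of them. The zone 2 to zone 1 ratio ran from 1.62 to 94.6 with a median of 3.85, and the zone 3 to zone 2 ratio from 1.63 to 37.7 with a median of 3.15. The zone 4 to zone 3 ratio, capped by the selection, ran from 1.63 to 2.00 with a median of 1.77. It was the smallest of the 3 ratios in 130 members, and the largest ratio was the first in 88, the second in 58 and the last in 4. The 3 ratios lay within 1.5-fold of each other in 26 members and within 2-fold in 48. On a linear scale the median member stood at 4.54% of its zone 4 mean in zone 1, 17.8% in zone 2 and 56.6% in zone 3. The members are therefore called genes higher at every zone step.

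**Figure D1:**
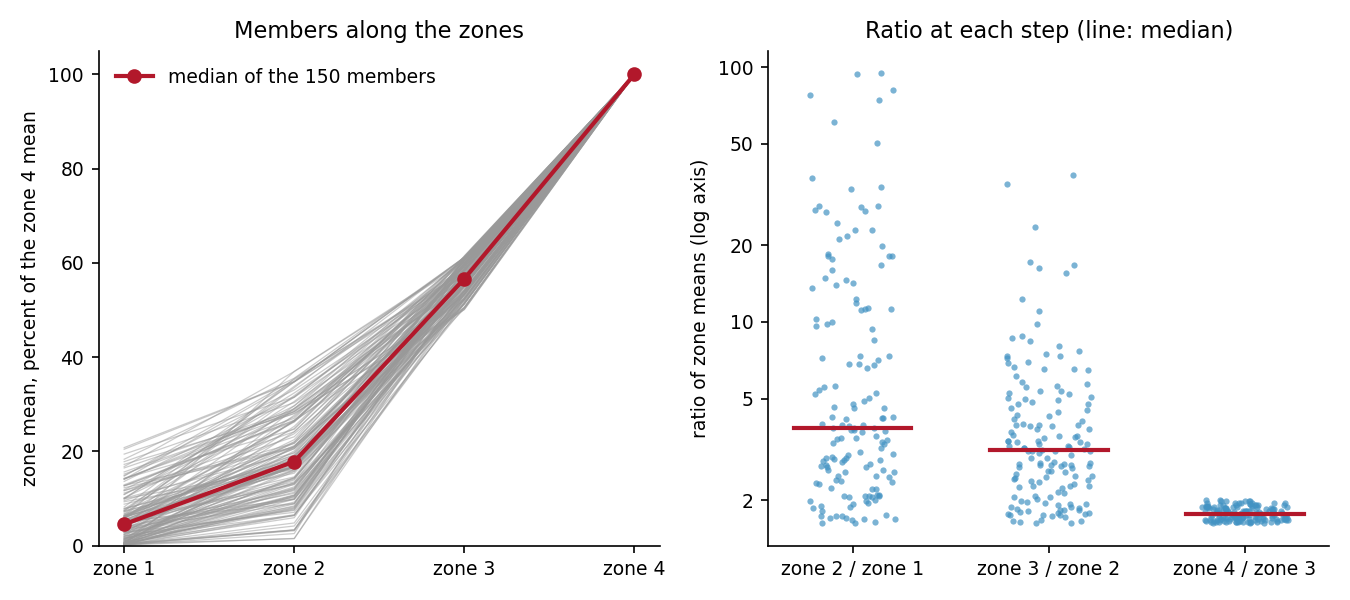
Left: mean level of each of the 150 members in zones 1 to 4 as a percentage of its own zone 4 mean (grey lines), with the median in red. Right: ratio of consecutive zone means for each member on a log axis (points, spread sideways to be visible), with the median as a red line at 3.85, 3.15 and 1.77. The last ratio lies in a narrow band because the selection limited it, and the first is the most spread.

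The plot of zone means and ratios shows how widely the members differed before zone 3. Median levels were 1.39 CPM in zone 1, 6.52 in zone 2, 22.9 in zone 3 and 40.0 in zone 4, and zone 4 means ran from 10.1 to 1163 CPM. 63 members were below 1 CPM in zone 1, and 36 were above 100 CPM in zone 4. The ratio of zone 4 to zone 1 had a median of 22.1 and ran from 4.81 to 2267. Libraries of a zone spread most where levels were low, with a median SD of 44.8% of the mean in zone 1, 33.3% in zone 2, 26.6% in zone 3 and 15.7% in zone 4. By the part of the ID before the letter g, the 150 members lay on 150 different scaffolds.

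The member ranked first by its smallest ratio was MA_10433308g0010. Its 5 libraries stood at 1.76, 2.40, 1.89, 1.13 and 1.59 CPM in zone 1, 7.07, 6.32, 11.1, 8.34 and 7.65 in zone 2, 34.2, 18.3, 46.0, 26.5 and 28.2 in zone 3 and 51.4, 62.1, 61.3, 64.8 and 65.4 in zone 4. No library of a zone overlapped the zone before it, and its ratios were 4.61, 3.79 and 1.99. Among the captured regions this gene stood at 20.4 ± 6.75 CPM (SD, n = 4) in stele 3 and at 3.06 ± 2.44 CPM (n = 4) in stele 2, with means of 0.938 to 2.00 CPM in the other regions. The second, MA_10436585g0020, was a gene of low level with zone 1 at 0.836 ± 0.703 CPM and zone 4 at 10.8 ± 1.66 CPM (SD, n = 5 each). Its zones 1 and 2 overlapped, with 0, 0.925, 1.89, 0.454 and 0.91 CPM against 1.70, 2.71, 1.04, 0.676 and 3.73 CPM, and it did not pass the filter on low counts in the captured table.

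The 2 members with the highest zone 4 mean differed in shape. MA_10431917g0010 was at 232, 219, 241, 218 and 219.6 CPM in zone 1, 386, 323, 435, 338 and 353 in zone 2, 775, 569.6, 834, 619 and 651 in zone 3 and 1139.6, 1200.5, 1213, 1166 and 1095 in zone 4. It was already expressed at the tip, its zones did not overlap, and it ranked 149. MA_1489g0010 was at 5.44, 6.10, 11.9, 7.04 and 7.96 CPM in zone 1, 227, 149.9, 300.3, 199 and 221 in zone 2, 791, 597, 601, 567 and 647 in zone 3 and 971, 1079, 1117, 1265 and 1021 in zone 4. Its ratios were 28.5, 2.92 and 1.70, the largest at the first step, again with no overlap between neighbouring zones. The 2 members whose 3 ratios were closest to each other, picked after their values were seen, were MA_10363408g0010 with ratios of 1.70, 1.68 and 1.72 and MA_747892g0010 with 1.81, 1.85 and 1.91. They, MA_14292g0010 (1.99, 1.78 and 2.00) and MA_91814g0010 (1.62, 1.80 and 1.98) were the 4 members with the last ratio the largest.

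Neighbouring zones did not overlap, with every library of the later zone above every library of the earlier one, for 111 of the 150 members between zones 1 and 2, against 19.6% of the 27767 genes tested in the zone table. Between zones 2 and 3 this held for 123 members (14.0% of all genes), between zones 3 and 4 for 94 (21.8%) and at all 3 steps for 69 (1.47%). The selection used these same zone means, so nothing is read from these counts. Zones 2 and 3 showed a shared pattern among replicates: the summed CPM of the members was highest in replicate 3 and lowest in replicate 2 in both, 4158 and 2378 CPM in zone 2 and 10598 and 6584 CPM in zone 3.

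At the edges of the selection the values were close. By rank, MA_91814g0010 was the last member and MA_20384g0010 the first gene left out, both with a smallest ratio of 1.62. At the upper limit of the last ratio MA_442695g0010 was a member at 1.997 and MA_10429923g0030 was outside at 2.001, and at the zone 4 limit MA_139427g0010 was a member at 10.1 CPM and MA_161192g0010 was outside at 9.88 CPM. At the lower ratio limit MA_3787g0010 met all limits at 1.4003 but was no member by rank, and MA_29255g0010 was outside at 1.399. The member with the lowest zone 1 mean was MA_101790g0010 at 0.0320 CPM. 16 genes had a zone 1 mean of 0 and met the limits on zone 4, with both later ratios at or above the smallest of any member, 1.62. Among them was MA_10241783g0010 with no count in zone 1 and 161 CPM in zone 4. How many would do so at the ratio limit of 1.4 was not counted.

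In the captured regions, which the selection did not use, most members had their highest level in stele 3. Of the 150 members, 141 had a count in a captured library and 9 had none. The highest captured mean was in stele 3 for 117 members and in stele 2 for 11, including members with only a few counts. Among the members that passed the filter on low counts described below it was in stele 3 for 100 of 112 (89.3%), against 30.6% of all 27239 genes that passed. A mean of at least 1 CPM was reached by 48 members in QC area libraries, 54 in ground tissue, 71 in stele 1, 108 in stele 2 and 115 in stele 3. No count was found for 50 members among QC area libraries, 34 in ground tissue, 36 in stele 1, 16 in stele 2 and 13 in stele 3. The median member stood at 0.190, 0.357, 0.741, 5.21 and 14.9 CPM in these regions.

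The summed level of all members showed the same order. Replicates 1 to 4 of the QC area held 996, 744, 659 and 753 CPM, and those of ground tissue 708, 665, 581 and 624 CPM. Stele 1 stood at 2719, 1671, 912 and 1605 CPM, stele 2 at 11068, 10116, 5976 and 11290 CPM, and stele 3 at 32256, 18224, 27607 and 24973 CPM. The 3 steles did not overlap, while the QC area overlapped with ground tissue and its highest library lay above the lowest of stele 1. Stele 1 replicate 1 was high and replicate 3 low within their group, as was stele 2 replicate 3, whose members lay a median of 0.81 (log2) below their group mean. 1 member weighed heavily on these sums: MA_1489g0010 held 43.7% of the stele 3 sum and the 5 largest members 70.0%, against 28.2% for the 5 largest in zone 4. Without it the mean sums were 1539 ± 607 CPM in stele 1, 6209 ± 1536 in stele 2 and 14510 ± 2452 in stele 3 (SD, n = 4 each), still in the same order.

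**Figure D2:**
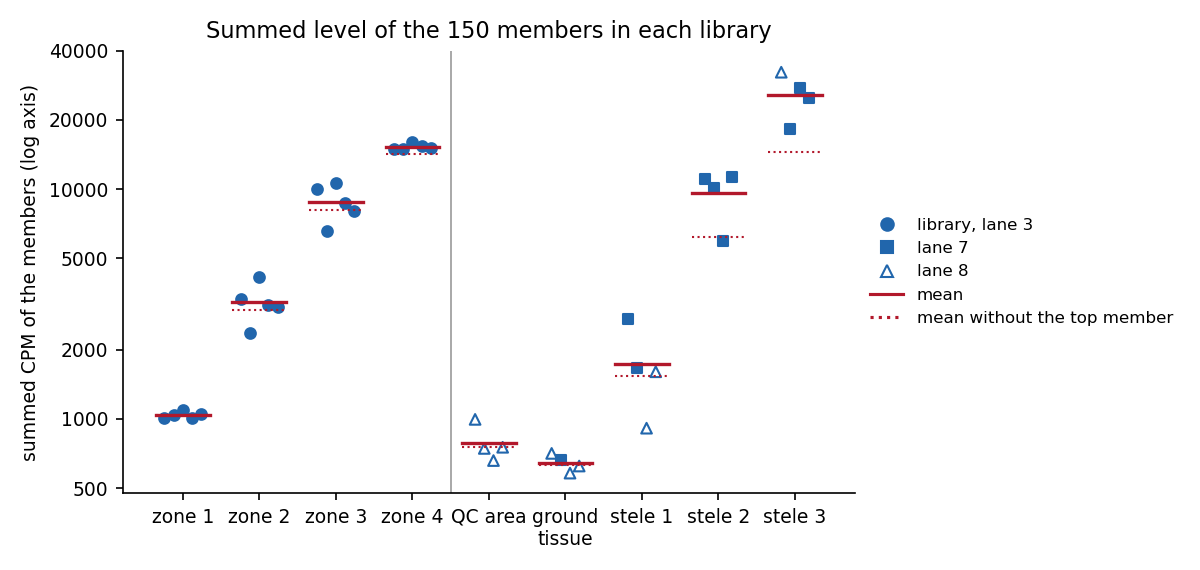
Summed CPM of the 150 members in each library on a log axis, for the 4 zones (left of the line, 5 libraries each) and the 5 captured regions (right, 4 libraries each). Symbols give the sequencing lane, solid lines the mean and dotted lines the mean without MA_1489g0010. Zones rise from 1043 to 15289 CPM by the selection, and the captured sums are lowest in ground tissue, at 645 CPM, and highest in stele 3, at 25765 CPM. Zone and captured values were scaled separately and are not compared.

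Tests were made on the 112 members that passed the filter on low counts in the captured table, among 27239 genes tested with the quasi-likelihood test of edgeR, a threshold of 0.05 and adjustment by Benjamini and Hochberg. The other 38 had zone 4 means of 10.2 to 373 CPM and too few captured counts. A member that passed this filter only through the region where it was high had to differ from the others, so the counts below describe the tested members and are not a count over all 150. They are given beside the share of all tested genes called in the same direction. Counts at an unadjusted p were made for the members only, without such a share.

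Between stele 1 and stele 2, 69 of the 112 tested members were higher in stele 2 (61.6%, against 12.4% of all tested genes) and 0 were lower (8.97% of all). No member was lower at an unadjusted p under 0.05 in edgeR or after adjustment in DESeq2. The members had a median log2 fold change of 2.45, also with the 10 without a count in stele 1 at their lower bound, against -0.051 for all genes. 106 of the 112 values were positive. The higher members were 76 of 117 without stele 1 replicate 1 (65.0%, against 12.9% of genes), 51 of 117 without stele 1 replicate 3 (43.6%, against 7.96%) and 74 of 115 without stele 2 replicate 3 (64.3%, against 3671 of 28267 genes). In the fit of these groups alone they were 37 of 88 members tested (42.0%, against 7.60% of 22663 genes). With total counts as the scaling, 64 members were higher, against 10.2% of all genes higher and 11.9% lower. Within lane 7, which held 2 stele 1 and 4 stele 2 libraries, 24 of 122 members passed the threshold as higher and 0 as lower, against 2.0% and 0.177% of 29947 genes, and lane 8 held no stele 2 library.

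Among called members whose groups did not overlap and averaged 10 CPM or more together, MA_187459g0010 and MA_59950g0010 had the largest change. Larger fitted values of members with no count in stele 1 are not ranked here. MA_187459g0010 was at 0, 1.64, 0 and 0.487 CPM in the 4 stele 1 libraries and at 77.8, 82.5, 25.1 and 66.8 CPM in those of stele 2. Every stele 2 library lay above every stele 1 library, with a log2 fold change of 6.85 ± 0.88 (SE, adjusted p = 0.000263 by edgeR). Replicate 2 held 12 of its 16 stele 1 counts, and leaving it out gave 8.39 (adjusted p = 0.000527 by edgeR), and within lane 7 it was 6.08. Neither ground tissue nor the QC area held a count of it. It passed the filter on low counts through stele 2 and stele 3, where it was high, which bears on this test. MA_59950g0010 was at 0, 0.82, 0.513 and 0.366 CPM in stele 1 and 50.3, 46.9, 3.62 and 47.1 CPM in stele 2, a log2 fold change of 6.30 ± 0.80 (SE, adjusted p = 5.89e-05 by edgeR). Stele 2 replicate 3 stood far below the other libraries of its group but above all of stele 1. This gene was also present at 2.39 ± 1.53 CPM in the QC area and at 2.46 ± 0.938 CPM in ground tissue (SD, n = 4 each), above its stele 1 mean of 0.424 CPM, though neither difference passed the threshold (adjusted p = 0.0805 and 0.101 by edgeR).

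Between stele 2 and stele 3, 24 of the 112 members were higher in stele 3 (21.4%, against 3.85% of all tested genes) and 0 were lower (9.16% of all). 2 members were lower at an unadjusted p under 0.05. DESeq2 called 0 lower (11.6% of all genes) and 35 higher (31.2%, against 7.67% of all). The median log2 fold change was 1.31 for the members and -0.11 for all genes, and 103 values were positive. This count fell when certain single libraries were left out, and the share of all genes called higher fell in the same fits. The count was 8 of 113 without stele 3 replicate 1 (7.08%, against 2.15% of genes) and 9 of 115 without stele 2 replicate 3 (7.83%, against 2.12%). It was 12 of 116 without stele 3 replicate 4 (10.3%, against 2.47%) and 13 of 115 without stele 3 replicate 3 (11.3%, against 2.13%). With total counts as the scaling, 12 members were higher, against 2.27% of all genes higher and 14.1% lower, with medians of 1.07 for the members and -0.34 for all genes. Within lane 7, with 4 stele 2 and 3 stele 3 libraries, 5 of 122 members were higher, against 0.351% of 29947 genes, and lane 8 held no stele 2 library.

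MA_93945g0010 showed the largest rise of this step among the members that met the rule for naming. It was at 4.83, 0.50, 0.0979 and 0 CPM in stele 2 and 67.4, 22.4, 12.6 and 24.7 CPM in stele 3, a log2 fold change of 4.56 ± 1.15 (SE, adjusted p = 0.0276 by edgeR). Stele 2 replicate 1 held 42 of the 49 stele 2 counts, and the groups did not overlap. It passed the filter on low counts mainly through stele 3, where it was high, which bears on this test. The value was 7.01 without stele 2 replicate 1 (adjusted p = 0.00276 by edgeR). It missed the threshold at 3.89 without stele 3 replicate 1 (adjusted p = 0.0726 by edgeR), at 3.90 with lane as a term (adjusted p = 0.0514 by edgeR), within lane 7 (adjusted p = 0.15 by edgeR), in DESeq2 (adjusted p = 0.11), in the fit of the groups compared alone (adjusted p = 0.0505 by edgeR) and without stele 2 replicate 2 (adjusted p = 0.0625 by edgeR) or replicate 3 (adjusted p = 0.0547 by edgeR). The gene had no count in stele 1, the QC area or ground tissue.

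MA_140410g0010 was at 14.5, 12.3, 0.392 and 0 CPM in stele 2 and 56.1, 83.3, 51.0 and 42.4 CPM in stele 3, a log2 fold change of 3.09 ± 0.89 (SE, adjusted p = 0.0291 by edgeR). Its stele 2 libraries fell apart into a higher and a lower pair, all below stele 3. Like MA_93945g0010, it passed the filter on low counts mainly through stele 3, which bears on this test. It missed the threshold in DESeq2 (adjusted p = 0.147), within lane 7 (adjusted p = 0.211 by edgeR), in the fit of the groups compared alone (adjusted p = 0.124 by edgeR), and without stele 2 replicate 3 or stele 3 replicate 1, 2 or 3 (adjusted p from 0.0504 to 0.0603 by edgeR). With the replicate block it was 4.20 and without stele 2 replicate 1 it was 3.67.

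Across both steps, from stele 1 to stele 3, 92 of the 112 members were higher (82.1%, against 20.9% of all tested genes) and 0 were lower (25.2% of all), with no member lower at an unadjusted p under 0.05 or in DESeq2. The median log2 fold change was 3.82, also with the 10 members that had no count in stele 1 at their lower bound, against -0.21 for all genes. The median of all genes moved to -0.60 with total counts, where 89 members were higher against 15.4% of all genes higher and 34.1% lower. Of 117 members tested, 100 were higher without stele 1 replicate 1 (85.5%, against 21.3% of genes) and 93 without replicate 3 (79.5%, against 17.9%). Within lane 7, with 2 stele 1 and 3 stele 3 libraries, 63 of 122 members were higher, against 7.66% of 29947 genes. Within lane 8, with 2 stele 1 libraries and 1 of stele 3, a lone library assumed to vary like the others, 86 of 124 were higher, against 14.5% of 29695 genes.

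Of the 20 tested members without this call, 16 had positive values. The other 4 were MA_10428529g0010 (-0.16 ± 0.33, SE, adjusted p = 0.727 by edgeR), MA_106384g0010 (-0.50 ± 0.52, adjusted p = 0.451 by edgeR), MA_2134318g0010 (-1.16 ± 0.79, adjusted p = 0.238 by edgeR) and MA_32640g0010 (-0.82 ± 1.12, adjusted p = 0.576 by edgeR), named after their values were seen. MA_32640g0010 had a high whole-segment level of 244 ± 40.2 CPM (SD, n = 5) in zone 4 and at most 9.94 CPM in any captured library.

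10 of the 92 members higher in stele 3 had no count in stele 1. MA_10431507g0020 had no count in stele 1, the QC area or ground tissue, and stood at 39.0, 0.75, 0 and 3.53 CPM in stele 2 and 127, 68.0, 20.6 and 19.3 CPM in stele 3. Against a floor of 3 counts over the stele 1 libraries it was at least 595-fold higher in stele 3. MA_34759g0010 likewise had no count in stele 1, the QC area or ground tissue and stood at 21.9, 17.8, 0.783 and 3.03 CPM in stele 2 and 90.8, 74.2, 42.3 and 22.7 CPM in stele 3, at least 583-fold higher than stele 1. Both passed the filter on low counts through the steles where they were high, so these folds are descriptions and no p is given. Both genes had a few zone 1 counts, 2 and 8 over the 5 libraries. MA_1489g0010, the member with the highest stele level, was at 377, 172, 42.6 and 159.9 CPM in stele 1, 3584, 4052, 1881 and 4099 in stele 2 and 15066, 6954, 13133 and 9869 in stele 3. Its log2 fold change from stele 1 to stele 3 was 5.91 ± 0.64 (SE, adjusted p = 1.17e-06 by edgeR), with no overlap between the steles.

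**Figure D3:**
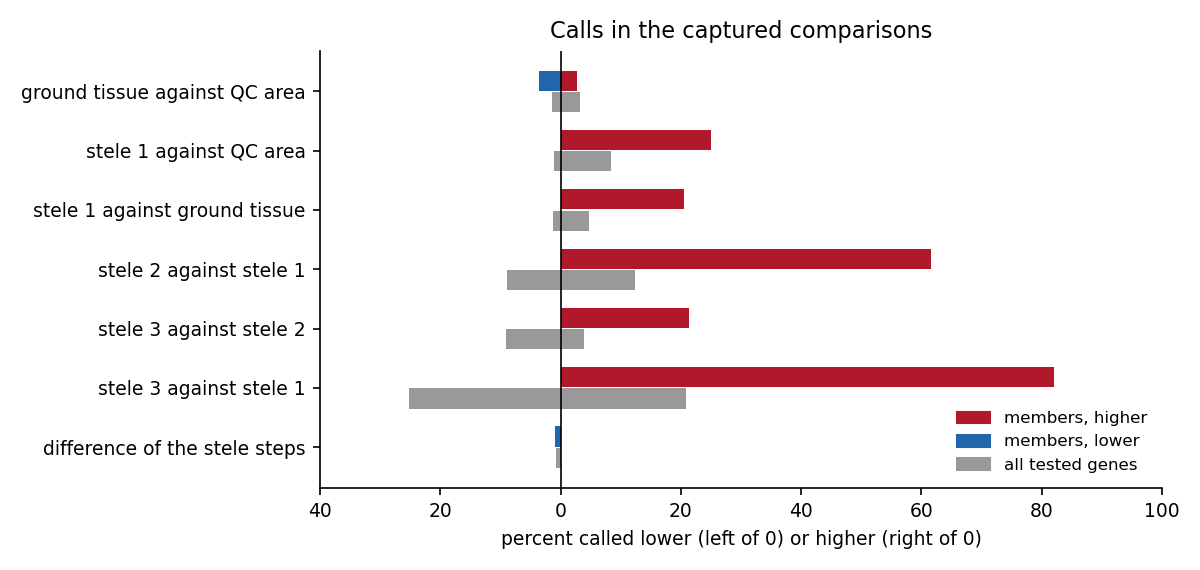
Percentage of the 112 tested members called higher (red, right of 0) or lower (blue, left of 0) in each captured comparison, with the percentage of all 27239 tested genes in grey. The widest gap is in stele 3 against stele 1, with 82.1% of the members higher against 20.9% of all genes. The bottom row is the second stele step minus the first.

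The sizes of both stele steps were compared in the same fit, as the log2 fold change from stele 2 to stele 3 minus that from stele 1 to stele 2. 92 of the 112 values were negative, with a median of -1.37 for the members and -0.26 for all genes. Positive values were found for 17.9% of the tested members and 40.6% of all tested genes, so most genes also lay at or below 0. 0 members passed the threshold as higher (0.0661% of all tested genes) and 1 as lower (0.786% of all). At an unadjusted p under 0.05 they were 1 and 33. DESeq2 called 0 higher (0.921% of all genes) and 6 lower (5.36%, against 2.36% of all). The member called lower was MA_567674g0010, at 0, 0.82, 0.82 and 0 CPM in stele 1, 48.2, 29.6, 9.89 and 20.4 in stele 2 and 58.3, 50.1, 40.1 and 53.4 in stele 3. Stele 2 did not overlap with stele 1 and did overlap with stele 3, and the difference was -4.98 ± 1.10 (SE, adjusted p = 0.0447 by edgeR). This gene passed the filter on low counts mainly through stele 2 and stele 3, where it was high, which bears on this test. The count of 1 was 7 of 115 without stele 2 replicate 3 (6.09%, against 1.63% of genes) and 4 of 117 without stele 1 replicate 1 (3.42%, against 1.32%). It was 0 without stele 1 replicate 3, stele 2 replicate 1 or 2, or stele 3 replicate 1, 2 or 3. MA_567674g0010 itself missed the threshold in 13 of 19 other settings, at an adjusted p of up to 0.128, with the lowest size, -4.18, without stele 2 replicate 1. As the stele 2 libraries enter both steps with opposite signs, a high or low stele 2 library moves both.

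**Figure D4:**
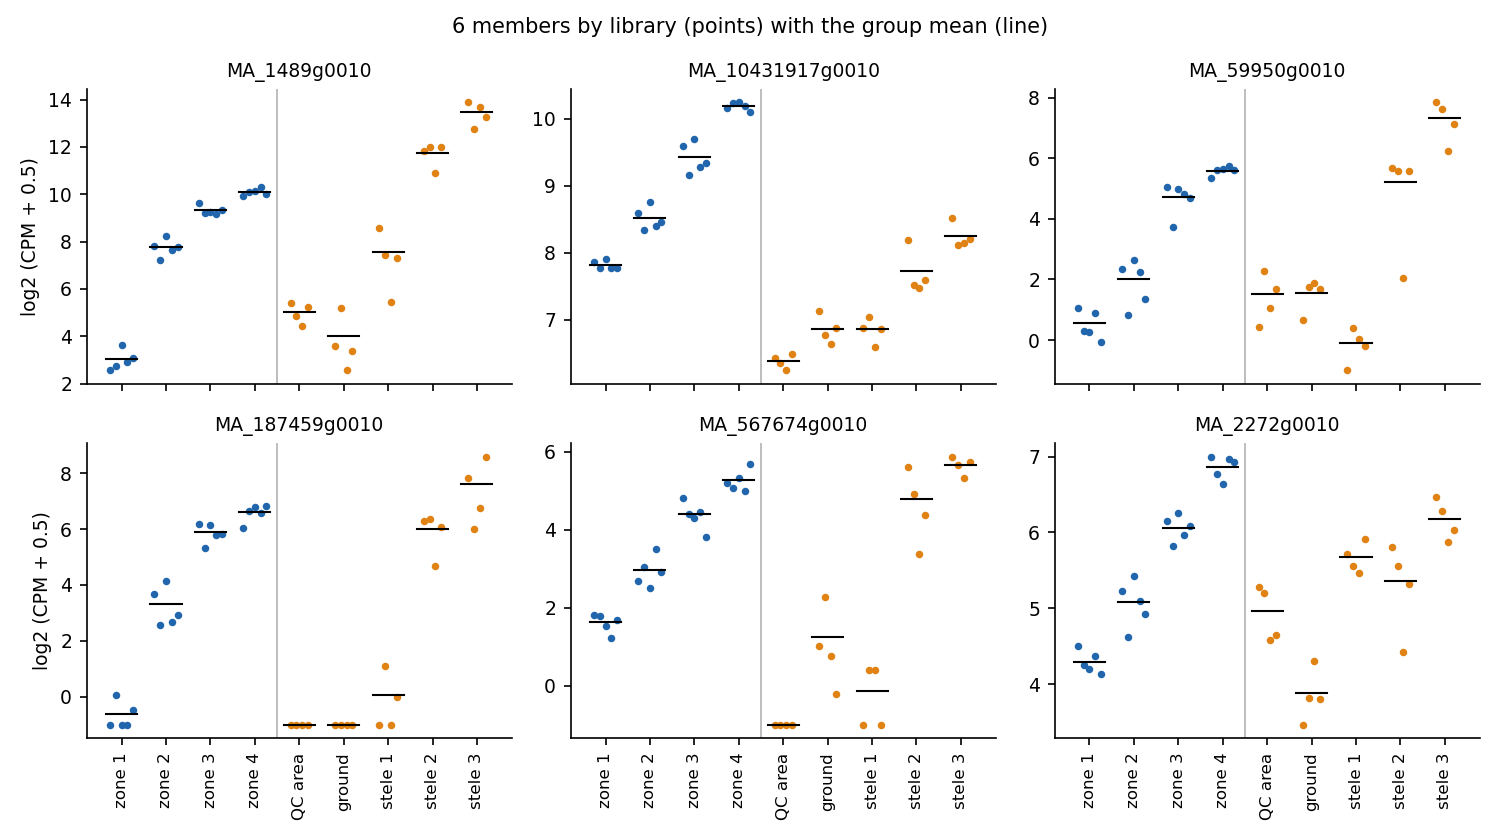
Level of 6 named members in each library (points) as log2 of CPM plus 0.5, with the log2 of the group mean plus 0.5 as a line, for the zones (blue) and captured regions (orange). Each panel has its own vertical axis. In MA_59950g0010 stele 2 replicate 3 lies apart at 3.62 CPM, and MA_2272g0010 is lower in ground tissue than in the QC area.

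By summed level, stele 1 was the stele closest to the QC area and ground tissue. Against the QC area, 28 of the 112 members were higher in stele 1 (25%, against 8.42% of all tested genes) and 0 were lower (1.03% of all). 3 were lower at an unadjusted p under 0.05. DESeq2 called 1 lower (0.893%, against 2.65% of all genes) and 34 higher (30.4%, against 9.21%). The members had a median log2 fold change of 1.14. It was also 1.14 over the 99 members above the floor of 3 counts in at least 1 group, with the 15 of them that had no count in the other group at their bound, against 0.054 for all genes. Within lane 8 (2 libraries of stele 1, 4 of the QC area) 5 of 124 members were higher against 1.93% of 29695 genes, and lane 7 held no QC area library. In the fit of these groups alone 9 of 51 members tested were higher (17.6%, against 6.17% of 22774 genes). Without stele 1 replicate 1 they were 21 of 117 (17.9%, against 5.57% of genes), and without replicate 3 they were 34 of 117 (29.1%, against 9.65%).

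MA_6668g0010 was at 6.13, 3.34, 3.45 and 1.93 CPM in QC area libraries, 3.37, 1.19, 2.59 and 2.42 in ground tissue and 103, 14.1, 10.9 and 27.4 in stele 1. Stele 1 replicate 1 stood far above the other 3, and all 4 stele 1 libraries lay above both other regions. The log2 fold change was 3.37 ± 0.70 against the QC area (SE, adjusted p = 0.00339 by edgeR), and 2.23 without stele 1 replicate 1 (adjusted p = 0.0218 by edgeR). Against ground tissue it was 4.00 ± 0.73 (SE, adjusted p = 0.00159 by edgeR), and 2.86 without that library (adjusted p = 0.00704 by edgeR). Within lane 8 both values passed at 2.30 and 2.74 (adjusted p = 0.0189 and 0.0162 by edgeR), and within lane 7 the ground tissue value, 5.48, did not (adjusted p = 0.216 by edgeR). MA_1489g0010 was at 41.9, 28.3, 21.3 and 37.2 CPM in the QC area, below all stele 1 values given above, a log2 fold change of 2.54 ± 0.55 (SE, adjusted p = 0.00495 by edgeR). It was 1.93 with lane as a term (adjusted p = 0.0345 by edgeR) and missed the threshold within lane 8 at 1.58 (adjusted p = 0.0841 by edgeR).

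Against ground tissue, 23 members were higher in stele 1 (20.5%, against 4.78% of all tested genes) and 0 were lower (1.25% of all). 5 were lower at an unadjusted p under 0.05. DESeq2 called 2 lower (1.79%, against 2.1% of all genes) and 31 higher (27.7%, against 5.96%). The median log2 fold change was 1.00. It was 1.04 over the 100 members above the floor in at least 1 group, with 8 of them at their bound, against 0.028 for all genes. 8 of 122 members were higher within lane 7 (2 libraries of stele 1 and a lone one of ground tissue), against 1.11% of 29947 genes. Within lane 8, with 2 and 3 libraries, 6 of 124 were higher, against 0.960% of 29695 genes. The fit of these groups alone had 12 of 53 higher (22.6%, against 3.68% of 22842 genes). Without stele 1 replicate 1 there were 20 of 117 (17.1%, against 2.86% of genes) and without replicate 3 there were 28 of 117 (23.9%, against 6.07%). MA_10430115g0010 was at 0, 0.495, 0 and 0.179 CPM in ground tissue and 71.0, 20.4, 8.92 and 14.9 CPM in stele 1, with no overlap. Its log2 fold change was 7.25 ± 1.28 (SE, adjusted p = 0.00126 by edgeR), 6.30 without stele 1 replicate 1 and 8.47 without ground tissue replicate 2. It was 6.37 within lane 7 (adjusted p = 0.0487 by edgeR) and missed the threshold within lane 8 (adjusted p = 0.12 by edgeR).

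Between ground tissue and the QC area few members passed the threshold in either direction. 3 of the 112 were higher in ground tissue (2.68%, against 3.23% of all tested genes) and 4 were lower (3.57%, against 1.51% of all). DESeq2 called 6 higher (5.36%, against 4.67% of all genes) and 7 lower (6.25%, against 2.71%), and 13 each had an unadjusted p under 0.05. Their median log2 fold change was 0.00. It was 0.05 over the 89 members above the floor in at least 1 group, with 6 of them at their bound, and 0.013 for all genes. Within lane 8 (3 libraries of ground tissue, 4 of the QC area) 4 of 124 members were higher and 9 lower, against 3.51% and 2.57% of 29695 genes. Lane 7 held no QC area library. The count of 4 was 2 without ground tissue replicate 1 or 4 or QC area replicate 1, against 0.792%, 1.04% and 0.863% of genes.

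MA_14292g0010 was at 15.2, 17.4, 16.0 and 16.5 CPM in the QC area and 40.1, 43.0, 46.2 and 30.7 CPM in ground tissue. All ground tissue libraries were above those of the QC area, with a log2 fold change of 1.30 ± 0.27 (SE, adjusted p = 0.00659 by edgeR). The other members called higher, named because they were so few, were MA_567674g0010 and MA_4660672g0010, both with no count in the QC area. MA_567674g0010 was at 1.52, 4.35, 1.20 and 0.358 CPM in ground tissue, at least 25.6-fold above a floor of 3 counts summed over the QC area libraries (adjusted p = 0.00602 by edgeR). MA_4660672g0010 was at 0.543, 1.09, 0.20 and 0.896 CPM, at least 9.39-fold higher (adjusted p = 0.0147 by edgeR).

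MA_2272g0010 was at 38.5, 36.3, 23.5 and 24.6 CPM in the QC area and 10.5, 13.6, 19.3 and 13.5 CPM in ground tissue. The groups did not overlap, with a log2 fold change of -1.11 ± 0.27 (SE, adjusted p = 0.0185 by edgeR). It missed the threshold without QC area replicate 1 or 2 or ground tissue replicate 1, 2 or 4 (adjusted p from 0.053 to 0.0859 by edgeR). The other members called lower in ground tissue were MA_8460112g0010 at 5.99 ± 1.19 against 1.03 ± 0.569 CPM (SD, n = 4 each, adjusted p = 0.0017 by edgeR), MA_92689g0020 at 7.67 ± 1.83 against 0.706 ± 0.64 CPM (adjusted p = 0.00396 by edgeR) and MA_10430115g0010. The QC area libraries of MA_10430115g0010 stood at 25.3, 1.39, 1.15 and 0.814 CPM, where replicate 1 lay far above the others, against the ground tissue values given above (adjusted p = 0.0198 by edgeR).

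The members were also split by how even their zone ratios were, which is a description because the selection used these ratios. For the 26 with ratios within 1.5-fold, 21 were tested, and 10 were higher in stele 2 against stele 1, 2 in stele 3 against stele 2 and 12 in stele 3 against stele 1. For the other 124, 91 were tested, and these counts were 59, 22 and 80. Of all tested genes, 12.4%, 3.85% and 20.9% were higher in these comparisons. The median log2 fold change from stele 1 to stele 3 was 1.55 for the first and 4.27 for the second, and the first ran from -0.50 to 5.12, into the values of the second. This difference was not tested. The even members also had smaller zone differences, as their last ratio is capped: their median levels were 8.76 CPM in zone 1 and 58.0 in zone 4, against 1.01 and 38.3 CPM for the others. Over the 112 tested members, the log2 ratio of zone 4 to zone 1 and the log2 fold change of stele 3 to stele 1 had a Pearson r of 0.62 and a Spearman rho of 0.63. This includes the 10 members with no count in stele 1, whose fitted fold change depends on the prior count. The log2 levels in zone 4 and stele 3 had an r of 0.53 and a rho of 0.46, the latter with 0.5 CPM added. These are descriptions across genes, which are not independent replicates and share their libraries.

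**Figure D5:**
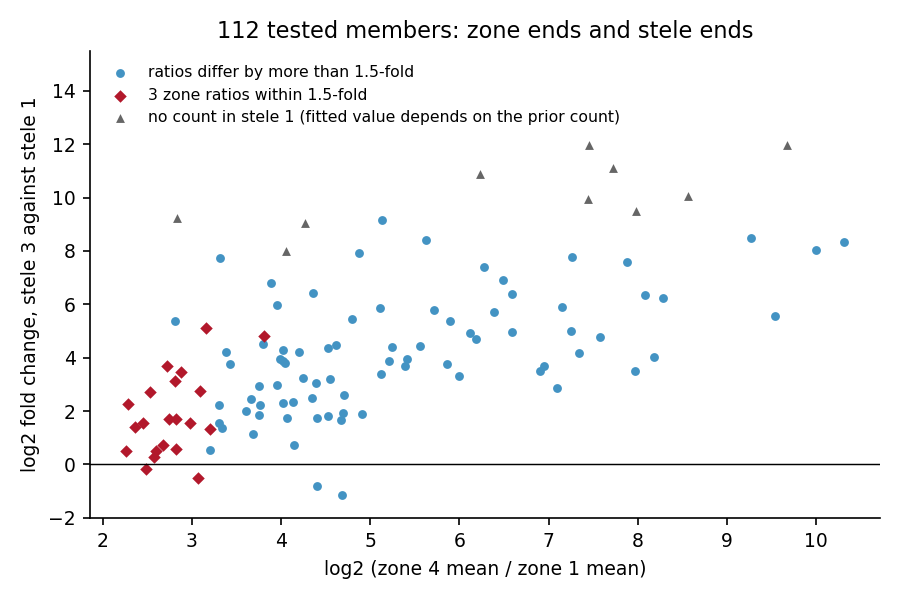
The 112 tested members by the log2 ratio of their zone 4 and zone 1 means (horizontal) and their log2 fold change from stele 1 to stele 3 (vertical). Diamonds are members whose 3 zone ratios lay within 1.5-fold, and triangles are the 10 members with no count in stele 1, whose fitted value depends on the prior count. The diamonds have low horizontal values and run from -0.50 to 5.12 vertically, and the 4 points below 0 are the members named above.

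A high level in whole segments did not always come with a high level in the captured regions. Of the 36 members above 100 CPM in zone 4, 10 had a mean under 10 CPM in each captured region, and the other 26 had their highest captured mean in stele 3. Among members that did not pass the captured filter, MA_10339776g0010 and MA_941735g0010, picked after their values were seen, had the highest zone 4 means. MA_10339776g0010 was at 405, 321, 381, 321 and 437 CPM in zone 4 and had 34 counts in all 20 captured libraries, none of them in the QC area. MA_941735g0010 was at 268, 294, 364, 262 and 339 CPM in zone 4 and had 26 captured counts, again none in the QC area. Zone 4 and captured values come from tables scaled separately, and the regions captured do not cover all cells of a segment.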

How the data were processed

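RNA sequencing of total RNA gave 20 zone and 20 captured libraries. The deposited values are raw counts, that is, whole numbers of reads assigned to each gene. The submitters' processing notes name Trimmomatic, STAR and HTSeq. No version, genome, annotation or strand setting for these is given in the sources, so reads of overlapping or antisense genes and of near-identical copies cannot be told apart. Per the labels' protocols, a chloroform extraction with RNeasy columns was used for zones and the RNAqueous-Micro kit for captured cells. Stele columns of the captured table do not carry the word stele and were matched by elimination. Replicates of a group differed by more than sampling noise, and none were merged.

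The members, lists and tests were chosen with earlier results of these data known. Zone CPM used column totals, and captured CPM used totals scaled by TMM. In R 4.3.3, edgeR 4.0.16 filtered the captured table with filterByExpr at default settings. All 20 captured libraries entered 1 glmQLFit model with the region as its only term. glmQLFTest was then run on 7 contrasts, with p-values adjusted by Benjamini and Hochberg over 27239 genes and a threshold of 0.05. SE stands for the log2 fold change divided by the root of F. The procedure was tested on simulated data. Alternatives were DESeq2 1.42.0, other scalings, no filter, a 2-fold minimum, a replicate block, lane as a term, single lanes, only the groups compared, and leaving out each library. Lists of pathways and cell type markers by product name could not be applied without gene names.

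Named members are the 2 ranked first, the 2 with the highest zone 4 mean, those at each limit, and per captured comparison up to 2 per direction with the largest change past the threshold at a mean of at least 10 CPM and no overlap. Others are said to be picked after their values were seen. Bounds use 3 counts over a group as the floor and cover counting error only, because reads that carry no molecular identifier need not be separate molecules.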

Additional observations from a re-analysis of the deposited data

Results flagged for a closer look

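Each of the 9 groups of summed levels and the 135 groups of values of 15 named members was searched for 1 library far from the others, by the gap to its nearest neighbour as a share of the whole range of the group. 11 of these 144 groups held one, or 7.64%, where chance alone gives about 1 in 20 groups. The groups share libraries and are not independent, and no group of summed levels was among the 11.

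In stele 2, replicate 1 stood high in 3 members. It was at 293 CPM in MA_10431917g0010, where the other 3 libraries were at 177 to 193 CPM. For MA_93945g0010 it was at 4.83 CPM against 0 to 0.50 CPM, and for MA_10431507g0020 at 39.0 CPM against 0 to 3.53 CPM. Stele 2 replicate 3 was low in MA_59950g0010, at 3.62 CPM against 46.9 to 50.3 CPM, and had the lowest summed level of the members in stele 2, at 5976 CPM. QC area replicate 1 was high in MA_10430115g0010, at 25.3 CPM against 0.814 to 1.39 CPM. Zone 2 replicate 5 was high in MA_6668g0010, at 24.6 CPM against 5.41 to 9.90 CPM. Zone 3 replicate 2 was low in MA_140410g0010, at 21.6 CPM against 47.9 to 51.5 CPM.

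The other 4 groups had counts in a single library. For MA_140410g0010 these were zone 1 replicate 1 at 0.320 CPM (2 counts), QC area replicate 4 at 0.102 CPM (1 count) and stele 1 replicate 2 at 0.683 CPM (5 counts). For MA_10431507g0020 it was zone 1 replicate 2 at 0.370 CPM (2 counts).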

How the results depend on the processing

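Of 136 counts of members or genes recomputed under other settings, 113 stayed within 1.5 times the reported count and 23 did not. 215 repeats of 13 tests of named members kept their direction in every case, and 36 missed the threshold. The selection was met by 358 genes, by 236 with a ratio limit of 1.5, and 99 of the 150 members still met the limits, with no new ranking, with the median of each zone in place of the mean. With DESeq2, ground tissue against the QC area had 6 members higher and 7 lower, stele 1 had 1 lower against the QC area and 2 lower against ground tissue, and the difference of the stele steps had 6 lower. That difference had 0 lower with DESeq2's size factors in edgeR, the replicate block, lane as a term or only the groups compared. It had 2 lower with total counts (1.79%, against 0.947% of all genes) and 5 of 141 with no filter (3.55%, against 0.652%). Stele 3 against stele 2 had 12 higher with total counts. Within lane 7 the higher counts were 8 for stele 1 against ground tissue, 24 for stele 2 against stele 1 and 5 for stele 3 against stele 2. Within lane 8, 9 members were lower in ground tissue than in the QC area, and 5 and 6 were higher in stele 1 than in the QC area and ground tissue. Only the groups compared gave 9 of 51 members tested, 12 of 53 and 37 of 88 higher for stele 1 against the QC area, stele 1 against ground tissue and stele 2 against stele 1, beside 6.17%, 3.68% and 7.60% of all genes. These fits have fewer libraries and tested fewer members. The cause of the other changes was not tested.

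Leaving out 1 library at a time gave 336 to 368 genes meeting the limits and 108 to 150 members still inside them. Fits without 1 captured library tested 113 to 117 members, and the share of all tested genes in these fits is given in brackets. For ground tissue against the QC area 3 were higher (1.73% to 2.79%) and 2 to 4 lower (0.792% to 1.17%). For stele 1 against the QC area 20 to 34 were higher (5.2% to 9.65%) and 0 lower (0.462% to 1.31%). For stele 1 against ground tissue 20 to 28 were higher (2.86% to 6.07%) and 0 to 1 lower (0.746% to 1.45%). For stele 2 against stele 1 it gave 51 to 76 higher, for stele 3 against stele 2 8 to 23, and for stele 3 against stele 1 92 to 100, each with 0 lower. For the difference of the stele steps 0 were higher (0.00711% to 0.262%) and 0 to 7 lower (0.275% to 1.63%).

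The groups share replicate numbers. Correlations of same-numbered deviations from the group means were all above 0.1 only for zones 2 and 3 (0.122 to 0.336) and for no captured pair. Missing this limit cannot show that the captured libraries were unpaired. The main fit assumed no pairing, and the replicate block was an alternative. With the replicate block the higher and lower members were 3 and 4, 31 and 0, 21 and 0, 66 and 0, 27 and 0, 94 and 0, and 0 and 0, in the order ground tissue and stele 1 against the QC area, stele 1 against ground tissue, stele 2 against stele 1, stele 3 against stele 2 and against stele 1, and the difference of the steps. In the same order, 3.0%, 7.81%, 4.37%, 11.8%, 3.74%, 20.5% and 0.0441% of all tested genes were higher. The shares lower were 1.31%, 0.973%, 1.23%, 8.3%, 7.69%, 24.3% and 0.573%.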
